A study of Homo sapiens with 2 samples.

Results

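The genes described here are 34 genes of glucose uptake, glycolysis, lactate handling and the entry of pyruvate into the mitochondrion, chosen by name from a table of 37122 gene rows. They were compared between Ramos cells and Ramos640 cells. Ramos is a human Burkitt's lymphoma (BL) line, a malignant B-cell line, grown in RPMI medium with fetal bovine serum. Ramos640 is the line derived from it by growth in escalating rituximab, the antibody against CD20, with normal human serum (NHS) as the source of complement. Its label gives a renewed treatment with rituximab at 640 mg/mL and 20% NHS every 21 days, whereas the methods of the study write the same figure in μg/mL. Both lines shared medium and serum otherwise, and the time between the last treatment and the harvest was not given in the sources used here. RNA of 3 passages was pooled for each line into 1 library, so no replicate shows the spread within a line, no test between the lines was possible, and each difference below is a difference between 2 libraries. Ramos640 is 1 resistant derivative, and what belongs to resistance and what belongs to that derivative cannot be told apart.

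Glycolysis splits glucose into pyruvate in the cytosol and yields ATP and NADH. Glucose enters through facilitative transporters, is trapped by hexokinase, and is committed at phosphofructokinase, the step that fructose 2,6-bisphosphate stimulates. Pyruvate is then either reduced to lactate, which leaves the cell with a proton through monocarboxylate transporters, or oxidised by the mitochondrial pyruvate dehydrogenase complex, which its kinases switch off. Many of these genes are known targets of the hypoxia-inducible factor HIF-1 and of MYC, whose translocation is the defining lesion of Burkitt's lymphoma.

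In Ramos640 cells the enzymes that carry the bulk of the glycolytic reads were close to their level in Ramos cells, and the differences lay in control enzymes and minor isozymes. PFKFB2 was 2.25-fold lower, ALDOC 1.94-fold lower, PDK1 1.90-fold lower, PFKFB4 1.88-fold lower and SLC16A3 1.60-fold lower. ENO2 was 4.62-fold higher and SLC2A3 2.15-fold higher, each from a low level, and the sign for SLC2A3 turned, to a log2 fold change of -0.33, when reads on its pseudogene rows were added. In such a bulk library, fewer cells with a transcript and less of it per cell cannot be told apart. The other 26 genes with enough reads stayed within the 1.5-fold limit that the study used. HK3 had 1 read in Ramos and 0 in Ramos640, too few for a fold change. A count of 0 in the Ramos640 library allows up to 3 reads, or 0.0972 RPM, which is the read count scaled to library size (0.0789 in Ramos).

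The fold changes are on a log2 scale, Ramos640 over Ramos, from read counts divided by median-of-ratios size factors, with 1 added to each value. A gene was compared if it had at least 10 reads in the libraries together, which 33 of the 34 genes and 18778 of all rows did. Of the 33 genes, 2 (6.06%) were more than 1.5-fold higher, where 14.6% of all compared genes were, and 5 (15.2%) were more than 1.5-fold lower, where 17.3% of all compared genes were. Both shares were below the background. Low counts scatter more, and most of the 33 genes were deeply read. Restricting to a minimum of 100 reads kept 32 genes, 1 of them higher and 5 (15.6%) lower, beside 9.94% and 12.6% of all genes at that depth. A minimum of 1000 reads kept 28, of them 0 higher and 3 (10.7%) lower, beside 6.87% and 7.93%. The share that was higher thus stayed below the background at every depth. The share that was lower stayed near it, a little below at 10 reads and a little above at the greater depths. With 2 of 33, 1 of 32 and 0 of 28 genes higher, and 5 of 32 and 3 of 28 lower, all these shares rest on few genes. At the minimum of 10 reads, 3 genes were higher with the trend of fold change with GC content removed. With pseudogene reads added 1 was. Over the 33 genes the median log2 fold change was 0.012, beside -0.015 for all compared genes, with quartiles at -0.25 and 0.15. Together the 34 genes held 547947 of 38030090 reads in Ramos (1.44%) and 427990 of 30871826 in Ramos640 (1.39%).

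Each fold change carries a 95% interval, derived by the exact Clopper-Pearson method from the part of the gene's reads that lay in the Ramos640 library. It covers counting error only, not the variation between cultures, and reads without molecular identifiers are not independent molecules. The interval lay above 0 for 14 of the 33 genes (42.4%), beside 29.6% of all compared genes, and below 0 for 15 (45.5%), beside 31.6%. At this depth a difference of a few percent between the libraries is resolved for an abundant gene, and so an interval that leaves out 0 says little on its own about the cell lines.

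**Figure D1:**
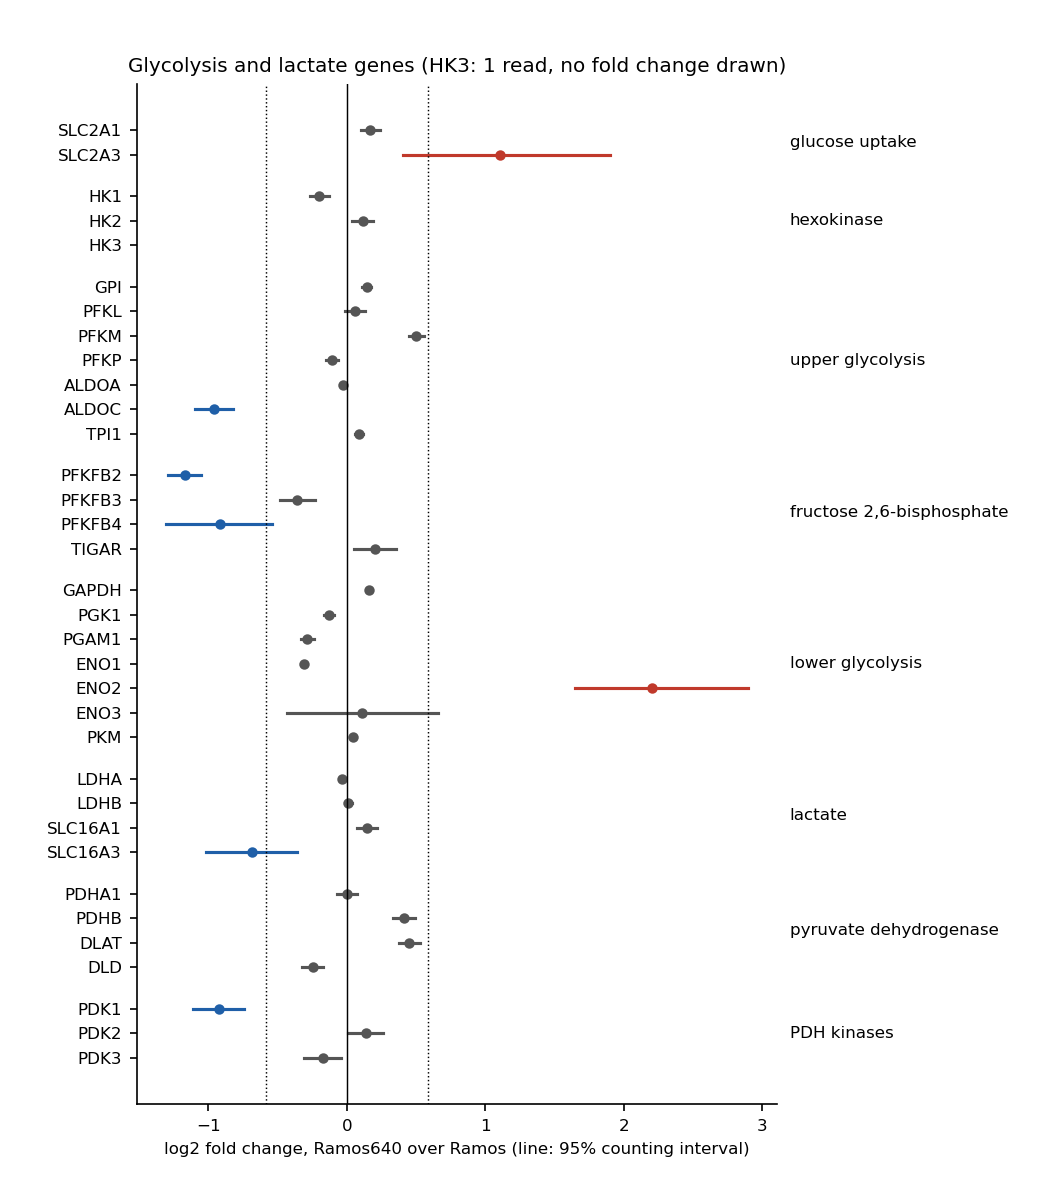
Log2 fold change (Ramos640 over Ramos, horizontal axis) of the 33 genes with at least 10 reads, grouped by role, with 95% counting intervals as bars and dotted lines at the 1.5-fold limit. 5 genes lie past the lower limit (PFKFB2, ALDOC, PDK1, PFKFB4, SLC16A3) and 2 past the upper one (ENO2, SLC2A3), while the remaining 26 lie between the lines.

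The promoters of the genes that differed are shown because HIF-1 binds the core letters ACGTG or GCGTG and MYC binds the E-box CACGTG, and both factors are known regulators of many of these genes. The sequences are the 250 bases before a transcript start in the RefSeq table of build GRCh38.p14, read 5′ to 3′ on the gene's strand, and 31 of the 34 genes have an entry there. SLC2A3, PFKFB2 and SLC16A1 have none. Capitals mark ACGTG or GCGTG found on either strand. CACGTG reads the same on both strands, so each one counts as 2 overlapping matches. The window of ALDOC (chr17:28576896-28577145, minus strand) held 5 matches, of which 1 pair is a CACGTG. That of PFKFB4 (chr3:48556804-48557053, minus strand) held 1. PDK1 (chr2:172555840-172556089, plus strand) and SLC16A3 (chr17:82228792-82229041, plus strand) held 2 each in the window shown. Where a gene had several windows, the one at the start of the transcript that GENCODE marks as canonical is shown. PDK1 has 2 windows, 1 with a match. SLC16A3 has 5, of which 3 held a match, and 1 of those not shown held 3 matches. ENO2 (chr12:6914330-6914579, plus strand), which was higher, held 1. LDHA (chr11:18394313-18394562, plus strand) is set beside them as a gene whose level hardly differed. Its window shown held 5, with 2 CACGTG, and its other window held 1.
ALDOC: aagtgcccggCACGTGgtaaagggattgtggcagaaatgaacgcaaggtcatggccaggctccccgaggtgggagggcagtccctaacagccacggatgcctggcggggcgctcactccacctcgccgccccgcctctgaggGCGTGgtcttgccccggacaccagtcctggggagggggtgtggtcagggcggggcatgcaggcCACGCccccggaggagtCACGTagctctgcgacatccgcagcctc
PFKFB4: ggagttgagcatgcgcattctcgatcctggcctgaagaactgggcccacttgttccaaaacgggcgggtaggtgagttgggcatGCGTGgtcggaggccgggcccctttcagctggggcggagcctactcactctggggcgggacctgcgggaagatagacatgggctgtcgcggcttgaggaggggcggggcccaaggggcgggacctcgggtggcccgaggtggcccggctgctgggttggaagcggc
PDK1: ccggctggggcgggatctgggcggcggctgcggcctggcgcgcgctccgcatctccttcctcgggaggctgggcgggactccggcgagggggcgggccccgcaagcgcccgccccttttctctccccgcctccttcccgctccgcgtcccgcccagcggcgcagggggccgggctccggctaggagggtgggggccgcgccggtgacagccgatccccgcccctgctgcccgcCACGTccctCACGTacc
SLC16A3: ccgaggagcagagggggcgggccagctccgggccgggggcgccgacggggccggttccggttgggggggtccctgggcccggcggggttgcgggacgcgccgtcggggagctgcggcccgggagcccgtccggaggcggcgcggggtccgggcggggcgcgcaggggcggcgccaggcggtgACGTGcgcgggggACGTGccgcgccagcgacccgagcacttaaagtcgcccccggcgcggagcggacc
ENO2: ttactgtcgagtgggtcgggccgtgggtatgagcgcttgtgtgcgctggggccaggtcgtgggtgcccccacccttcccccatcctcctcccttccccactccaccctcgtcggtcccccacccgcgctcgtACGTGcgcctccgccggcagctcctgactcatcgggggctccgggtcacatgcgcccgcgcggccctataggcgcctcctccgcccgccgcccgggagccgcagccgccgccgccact
LDHA: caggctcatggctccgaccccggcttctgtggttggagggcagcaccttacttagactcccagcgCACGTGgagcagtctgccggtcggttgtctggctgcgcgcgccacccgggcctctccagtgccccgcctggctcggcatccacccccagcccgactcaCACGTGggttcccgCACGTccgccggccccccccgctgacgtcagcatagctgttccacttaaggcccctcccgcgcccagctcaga
The letters stood in lower, higher and level genes alike. All 4 genes that were lower and have an entry held at least 1 match, as did 21 of the 25 genes within the limit. In all, 26 of the 31 genes (83.9%) held one in at least 1 window, beside 47.4% of 27305 genes in the table, and a gene with more windows has more chances to hold one. Per window, 6 of 9 (66.7%) of the lower genes and 27 of 50 (54.0%) of the genes within the limit held one. Across the 35116 windows of all genes, 43.2% held ACGTG or GCGTG, beside 34 of the 61 windows of the glycolysis genes (55.7%). CACGTG stood in 6.34% of all windows and in 8 of the 61 (13.1%). A match of letters describes the window and is no evidence that a factor was bound there.

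Of the 2 glucose transporters among the 34 genes, most reads lay on SLC2A1, which encodes GLUT1, the basal glucose transporter of most proliferating cells. Its row held 3748 reads in Ramos and 3235 in Ramos640, for a log2 fold change of 0.17 (interval 0.10 to 0.24). In RPKM, which divides by transcript length and by library size, its level was 29.1 in Ramos and 31 in Ramos640. SLC2A5, a related transporter known for fructose that is not among the 34 genes and was named after its values were seen, had more reads than SLC2A1, 7493 and 8478 (48.2 and 67.2 RPKM), with a log2 fold change of 0.56 (0.51 to 0.60). SLC2A3 encodes GLUT3, a high-affinity transporter, and was hardly expressed, at 26 reads in Ramos and 44 in Ramos640 (0.18 and 0.37 RPKM). Its log2 fold change was 1.11 (0.41 to 1.90), and its share of the reads of both transporters was 0.689% in Ramos and 1.34% in Ramos640. The SLC2A3 call depends on where its reads were placed. Pseudogene rows named after SLC2A3 held 386 reads in Ramos and 208 in Ramos640, most of them on SLC2A3P1 with 376 and 205. With those reads added the log2 fold change was -0.33 (-0.56 to -0.098), of the opposite sign, and pseudogenes then made up 93.7% and 82.5% of the sum. How reads matching several genes were counted was not stated, so the direction for SLC2A3 is uncertain. SLC2A3 lies on chromosome 12, from 8071826 to 8171603 of GRCh37, minus strand.

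Hexokinase phosphorylates glucose and keeps it in the cell. HK1, the form of most tissues, had 4159 reads in Ramos and 2782 in Ramos640, with a log2 fold change of -0.20 (-0.27 to -0.13). HK2, the inducible form of muscle and tumours, had 3268 and 2716, with 0.11 (0.040 to 0.19). The pair moved apart by a small amount. HK2 held 44% of the hexokinase reads in Ramos and 49.4% in Ramos640, 5.40 percentage points more (3.65 to 7.15). The sum over the family was nearly level, from 7428 to 5498 reads with a log2 fold change of -0.053 (-0.10 to -0.0025) after scaling. A pseudogene row of HK2 held 12.6% of the HK2 and pseudogene reads in Ramos and 13.8% in Ramos640.

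In upper glycolysis, 6 of 7 genes were within the limit and ALDOC was lower. GPI, which turns glucose 6-phosphate into fructose 6-phosphate, had 14057 and 11920 reads and a log2 fold change of 0.14 (0.11 to 0.18). Phosphofructokinase, the committed step, was made up of 3 isozymes in these cells. PFKP, the platelet form, had 10330 reads in Ramos and 7352 in Ramos640, for a log2 fold change of -0.11 (-0.15 to -0.066). PFKM, the muscle form, had 5832 and 6350, with 0.50 (0.45 to 0.56), the highest value among the genes within the limit. PFKL, the liver form, had 3639 and 2916, with 0.062 (-0.0092 to 0.13). The mixture of the isozymes thus differed while the total differed little. PFKM held 29.5% of the phosphofructokinase reads in Ramos and 38.2% in Ramos640, a difference of 8.76 points (7.78 to 9.74). PFKP held 52.2% and 44.2%, a difference of -7.93 points (-8.96 to -6.90), and remained the largest share in both. The family sum had a log2 fold change of 0.13 (0.098 to 0.16). PFKM overlaps SENP1 on the opposite strand, which had 1686 and 1051 reads, and strand use in the counting was not stated.

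Aldolase cleaves fructose 1,6-bisphosphate, and TPI1 interconverts the resulting trioses. ALDOA, the main aldolase, had 39121 reads in Ramos and 29483 in Ramos640, for a log2 fold change of -0.027 (-0.049 to -0.0051), at 627 and 582 RPKM. ALDOC, the form best known from brain, had 1593 reads in Ramos and 630 in Ramos640, which is 1396 and 719 after scaling, and 26.0 and 12.7 RPKM. Its log2 fold change was -0.96 (-1.09 to -0.82). ALDOC was thus lower in a family whose main enzyme, with this scaling, did not differ by more than a few percent. With total counts ALDOA stood at -0.11 and ALDOC at -1.04. With the trend of fold change with GC content removed they stood at -0.26 and -1.10. Its share of the aldolase reads was 3.91% in Ramos and 2.09% in Ramos640, a difference of -1.82 points (-2.07 to -1.57). ALDOC lies on chromosome 17, from 26900133 to 26903966 of GRCh37, minus strand, where RSKR overlaps it on the same strand. RSKR had 443 and 224 reads, for a log2 fold change of -0.60, in the same direction as ALDOC, and its part in the ALDOC reads was not tested. TPI1 had 19264 and 15726 reads and a log2 fold change of 0.088 (0.058 to 0.12). Pseudogene rows of TPI1 held nearly as many reads as TPI1 itself, at 47.1% of their sum in Ramos and 48.3% in Ramos640, chiefly on TPI1P1 with 16771 and 14401 reads.

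The enzymes that set fructose 2,6-bisphosphate were the group with the lowest median, -0.63 over 4 genes. The bifunctional PFKFB enzymes make and degrade this activator of phosphofructokinase, and TIGAR degrades it. PFKFB2, known as the heart form, had 2228 reads in Ramos and 759 in Ramos640, which is 1952 and 866 after scaling, and 8.28 and 3.48 RPKM. Its log2 fold change of -1.17 (-1.29 to -1.05) was the lowest of the 33 genes. PFKFB4 was weakly expressed, at 202 reads in Ramos and 82 in Ramos640 (1.52 and 0.759 RPKM), with a log2 fold change of -0.91 (-1.31 to -0.54). PFKFB3, the form with the highest ratio of kinase to phosphatase activity, had 1364 and 818 reads (8.0 and 5.91 RPKM). Its log2 fold change was -0.36 (-0.48 to -0.23), lower but within the limit. All 3 PFKFB enzymes thus had fewer reads for their library in Ramos640, by unequal amounts. PFKFB2 was the most read of them in Ramos, with 58.7% of the family's reads, and PFKFB3 in Ramos640, with 49.3%. The PFKFB2 share differed by -13.0 points (-15.9 to -10.1) and the PFKFB3 share by 13.4 points (10.5 to 16.2), and per kilobase of transcript the differences were -12.3 and 13.3 points. TIGAR, counted under its older symbol C12orf5, had 786 and 695 reads and a log2 fold change of 0.20 (0.054 to 0.35), in the other direction.

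PFKFB2 lies on chromosome 1, from 207207711 to 207254369 of GRCh37, plus strand, and YOD1 overlaps it on the opposite strand. YOD1 had 701 reads in Ramos and 349 in Ramos640, for a log2 fold change of -0.62, and because strand use was not stated, reads of the pair cannot be told apart where they overlap. PFKFB4 lies on chromosome 3, from 48555117 to 48599448, minus strand.

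**Figure D2:**
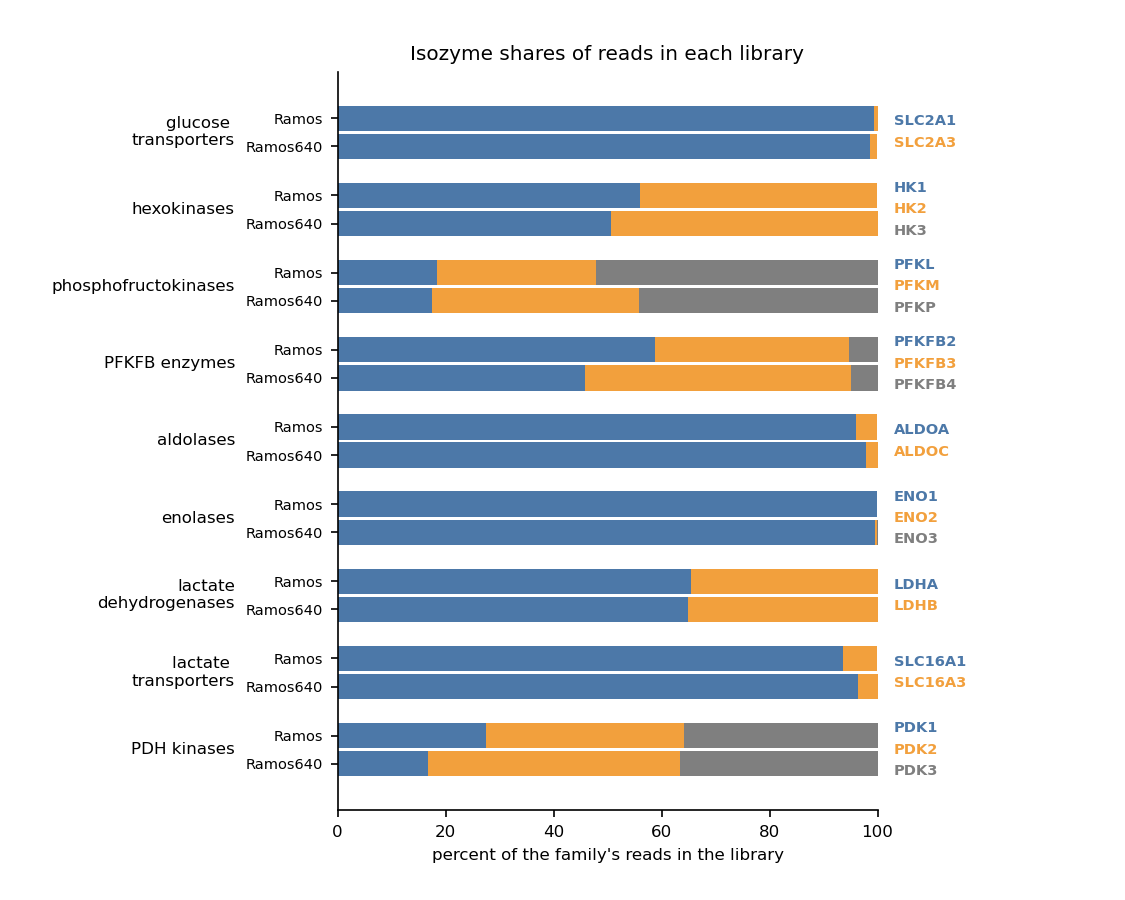
Share of each isozyme in the reads of its family (percent, horizontal axis) in the Ramos and the Ramos640 library, 1 bar per library. The PFKFB2 segment is 58.7% in Ramos and 45.8% in Ramos640, the PFKM segment 29.5% and 38.2%, the PDK1 segment 27.5% and 16.7%, and LDHA and LDHB are almost the same in both.

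Lower glycolysis held the most abundant transcripts, and its main genes differed little. GAPDH, which couples triose oxidation to NADH, had 165000 reads in Ramos and 141904 in Ramos640, for a log2 fold change of 0.16 (0.15 to 0.17), at 3376 and 3577 RPKM. PGK1, the first ATP-yielding step, had 17250 and 12117 reads, with -0.13 (-0.16 to -0.095). PGAM1, the phosphoglycerate mutase, had 9077 and 5723, with -0.28 (-0.33 to -0.24). PGAM1 and ENO1, consecutive enzymes, were the main enzymes with the lowest values. ENO1, the ubiquitous enolase, had 59438 and 36798 reads, for a log2 fold change of -0.31 (-0.33 to -0.29), at 878 and 669 RPKM. PKM, pyruvate kinase, had 69494 and 55185, with 0.048 (0.032 to 0.065). The row does not separate the M1 and M2 splice forms of PKM.

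Of the minor enolases, ENO2 did not follow ENO1, and ENO3 had too few reads to tell. ENO2, the neuronal enolase, had 29 reads in Ramos and 106 in Ramos640, or 0.332 and 1.5 RPKM. Its log2 fold change was 2.21 (1.65 to 2.90), the highest of the 33 genes, yet it supplied only 0.0487% of the enolase reads in Ramos and 0.287% in Ramos640. ENO3, the muscle enolase, had 65 and 54 reads and 0.11 (-0.43 to 0.66), a difference not detectable at this depth. That interval also includes the value of ENO1. PFN1 overlaps ENO3 on the opposite strand with 9466 and 6688 reads, and its part in the ENO3 reads was not tested. ENO2 lies on chromosome 12, from 7022909 to 7032861 of GRCh37, plus strand, and LRRC23 overlaps it on the same strand with 767 and 737 reads, for a log2 fold change of 0.32. LRRC23 had far more reads than ENO2, and its part in the ENO2 reads was not tested.

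Copies of the abundant genes limit these values. The table has 61 rows of GAPDH pseudogenes, 37 of them with at least 10 reads, which summed to 22976 reads in Ramos and 25082 in Ramos640. That sum had a log2 fold change of 0.51, above the 0.16 of GAPDH itself, and with it added GAPDH stood at 0.21 (0.20 to 0.22). Pseudogene rows made up 15.5% of the LDHA sum in Ramos and 17.7% in Ramos640, 11.1% and 12.2% for PGK1, and 2.74% and 4.12% for ENO1. PGAM4, an intronless copy of PGAM1 that lies within PGK1 on the opposite strand, had 1611 and 1348 reads. Adding the pseudogene reads took none of these genes past the 1.5-fold limit.

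Lactate dehydrogenase interconverts pyruvate and lactate, and with the scaling used here neither subunit differed by more than a few percent. With total counts LDHA stood at -0.11 and LDHB at -0.069. With the trend of fold change with GC content removed they stood at 0.19 and 0.15, so the sign of so small a difference depends on the processing. LDHA, the muscle-type subunit, had 64370 reads in Ramos and 48346 in Ramos640, for a log2 fold change of -0.032 (-0.049 to -0.015), at 755 and 699 RPKM. LDHB, the heart-type subunit, had 33894 and 26238 reads, with 0.012 (-0.012 to 0.035), at 684 and 652 RPKM. The balance of the subunits was nearly the same in both lines. LDHA held 65.5% of the reads of the pair in Ramos and 64.8% in Ramos640, a difference of -0.69 points (-1.14 to -0.23), or 52.5% and 51.7% per kilobase.

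The lactate transporters differed from each other. SLC16A1, which encodes MCT1, had 3539 reads in Ramos and 3005 in Ramos640, with a log2 fold change of 0.15 (0.074 to 0.22) and 24.8 and 25.9 RPKM. SLC16A3, which encodes MCT4, the low-affinity exporter of strongly glycolytic cells, had 241 and 115 reads, or 2.44 and 1.43 RPKM. Its log2 fold change was -0.68 (-1.02 to -0.36), the nearest to the limit among the genes past it, and its interval reached inside the limit, as did those of PFKFB4 and SLC2A3. Of this pair SLC16A1 thus held most of the reads in both lines, with the SLC16A3 share at 6.38% in Ramos and 3.69% in Ramos640. SLC16A7, a related transporter that is not among the 34 genes and was named after its values were seen, had 278 and 168 reads. That was more than SLC16A3, and its log2 fold change was -0.34 (-0.63 to -0.064). SLC16A3 lies on chromosome 17, from 80175810 to 80219005 of GRCh37, plus strand. CSNK1D overlaps it on the opposite strand with 4733 and 4260 reads and a log2 fold change of 0.23, the other direction.

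The pyruvate dehydrogenase complex turns pyruvate into acetyl-CoA. None of its 4 genes was past the limit, and their median was 0.21. PDHA1, the E1 alpha subunit, had 3621 reads in Ramos and 2783 in Ramos640, for a log2 fold change of 0.0013 (-0.070 to 0.073). PDHB, the E1 beta subunit, had 2709 and 2771, with 0.41 (0.34 to 0.49). DLAT, the E2 acetyltransferase, had 2648 and 2782, with 0.45 (0.38 to 0.53). DLD, the E3 subunit that other dehydrogenase complexes share, had 3907 and 2528, with -0.25 (-0.32 to -0.17). The subunits were therefore not shifted together. DLAT passed the limit, at 0.70, once the trend of fold change with GC content was removed.

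The kinases that inactivate the complex differed from one another. PDK1, a known HIF-1 target, had 838 reads in Ramos and 339 in Ramos640, which is 734 and 387 after scaling. Its log2 fold change was -0.92 (-1.11 to -0.74). With the trend of fold change with GC content removed PDK1 stood at -0.64, outside that interval and only just past the limit. PDK2 had 1119 and 946 reads, with 0.14 (0.012 to 0.26), and PDK3 had 1090 and 742, with -0.17 (-0.31 to -0.038). PDK1 alone of the 3 was past the limit. It held 27.5% of the kinase reads in Ramos and 16.7% in Ramos640, a difference of -10.8 points (-13.1 to -8.46), while PDK2 held 36.7% and 46.7% and PDK3 35.8% and 36.6%. The annotated transcript of PDK1 is 14072 bases long, so per kilobase the PDK1 share was 5.85% and 3.29%, a difference of -2.55 points. PDK1 lies on chromosome 2, from 173420101 to 173473397 of GRCh37, plus strand.

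**Figure D3:**
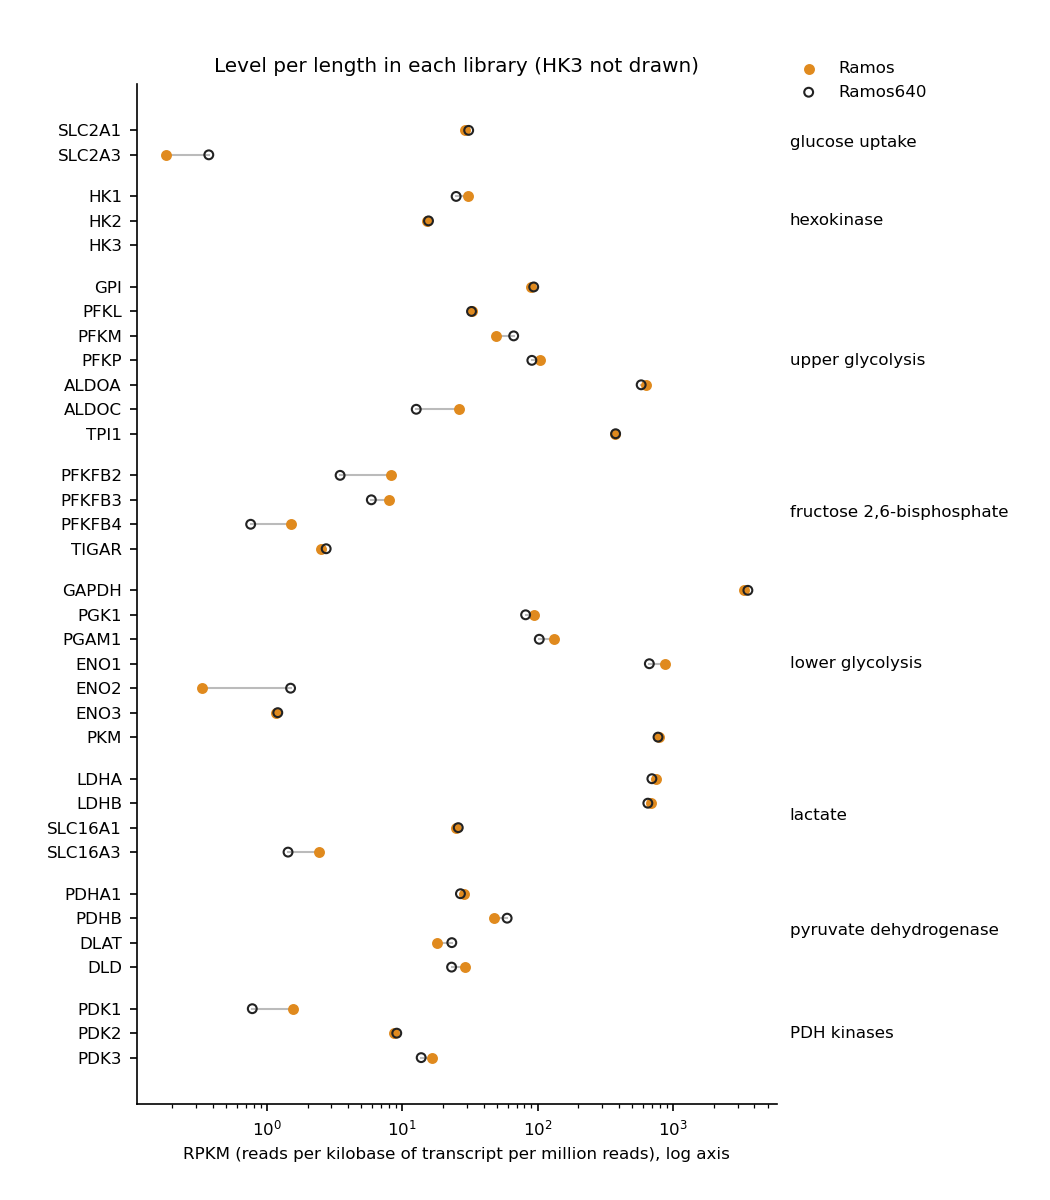
Level of each gene in RPKM (reads scaled to transcript length and library size, log axis) in Ramos and Ramos640, 1 point per library, grouped by role. The paired points nearly coincide for abundant genes such as GAPDH (3376 and 3577) and LDHA (755 and 699), and stand apart for ENO2 (0.332 and 1.5) and PFKFB2 (8.28 and 3.48).

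Following 1 gene per step, the one with the most reads in the libraries together, gives 12 genes. They run from SLC2A1 through HK1, GPI, PFKP, ALDOA, TPI1, GAPDH, PGK1, PGAM1, ENO1 and PKM to LDHA. Their log2 fold changes ran from -0.31 (ENO1) to 0.17 (SLC2A1), 5 above 0 and 7 below, and the widest was 1.24-fold. With the isozymes among the 34 genes summed for each step, the range was -0.31 to 0.18. None of the 12 genes or sums was past the 1.5-fold limit.

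**Figure D4:**
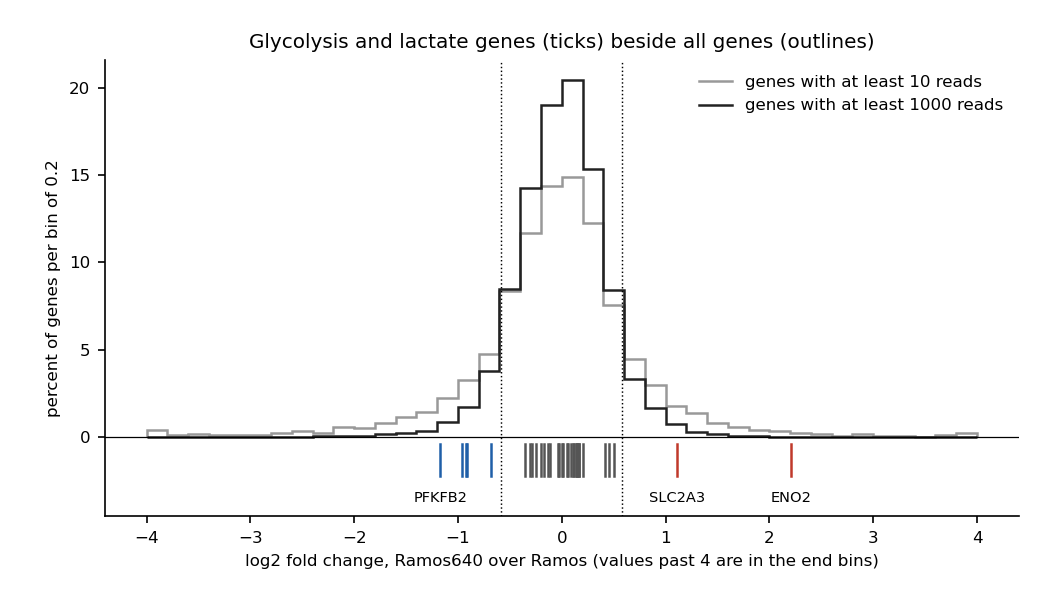
Log2 fold change (Ramos640 over Ramos, horizontal axis) against the percent of genes per bin (vertical axis), for all 18778 compared genes (grey outline) and those with at least 1000 reads (black outline), with the 33 glycolysis and lactate genes as ticks below. The ticks crowd around 0, with a median of 0.012 beside -0.015 for all genes, and 7 of them stand past the dotted lines of the 1.5-fold limit.

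Genes around the pathway were examined as 8 lists with 121 genes, of which 101 had at least 10 reads. Of these, 14 were more than 1.5-fold higher (13.9%) and 17 lower (16.8%), near the 14.6% and 17.3% of all compared genes. Genes named here from each list had at least 100 reads in the libraries together and were past the limit, and HIF1A and TXNIP are named whatever their values.

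Among 12 compared regulators, 1 was higher and 0 lower. MYC, which drives many glycolytic genes, had 16186 reads in Ramos and 21564 in Ramos640, for a log2 fold change of 0.79 (0.77 to 0.82). HIF1A, the oxygen-regulated subunit of HIF-1, had 2164 and 1121 reads, with -0.57 (-0.67 to -0.46), just inside the limit. Its value was -0.65 with total counts, past the limit, and -0.28 with the GC trend removed, well inside it. TXNIP, an inhibitor of glucose uptake that glucose induces, had 683 and 662, with 0.34 (0.18 to 0.49). The mRNA of MYC was thus higher and that of HIF1A lower in Ramos640, the latter by an amount that depended on the processing. RNA says nothing about the stability of the HIF-1 protein.

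Among 14 compared hypoxia targets outside glycolysis, 2 were higher (14.3%) and 4 lower (28.6%), beside 14.6% and 17.3% of all compared genes. Their median was -0.39, and with so few genes the share rests on a small count. BNIP3, a mitophagy receptor, had 1692 and 744 reads and a log2 fold change of -0.80 (-0.93 to -0.68). BNIP3L, a related receptor, had 1530 and 480, with -1.29 (-1.44 to -1.14). ANKRD37 had 73 and 31, with -0.84 (-1.51 to -0.23). With the GC trend removed BNIP3 stood at -0.59, at the edge of the limit, BNIP3L at -0.97 and ANKRD37 at -0.82. The list then had 2 genes higher and 5 lower. The list did not move in 1 direction. ADM, the vasodilator peptide adrenomedullin, had 377 and 1096, with 1.92 (1.75 to 2.09), and P4HA2, a collagen prolyl hydroxylase, had 64 and 127, with 1.35 (0.93 to 1.83).

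Of 28 compared further isozymes, transporters and carriers, 5 were higher (17.9%) and 8 lower (28.6%, the same share as among the hypoxia targets). BSG, the chaperone that brings MCT1 and MCT4 to the membrane, had 4592 and 5332 reads and a log2 fold change of 0.60 (0.54 to 0.65). EMB, the related chaperone embigin, had 2979 and 1264, with -0.86 (-0.95 to -0.76). The signs were opposite, but with the GC trend removed both lay inside the limit, BSG at 0.41 and EMB at -0.51, and with total counts BSG did too, at 0.52. MPC2, a subunit of the mitochondrial pyruvate carrier counted as BRP44, had 2713 and 1200, with -0.80 (-0.89 to -0.70), whereas its partner MPC1, counted as BRP44L and named for the contrast after its value was seen, had 1263 and 856, with -0.18 (-0.31 to -0.054). BPGM, which makes 2,3-bisphosphoglycerate, had 880 and 419 reads, with -0.69 (-0.86 to -0.52), or -0.55 with the GC trend removed, inside the limit. MINPP1, a phosphatase that removes it, had 107 and 146, with 0.82 (0.46 to 1.2). SLC2A13, a myo-inositol transporter, had 157 and 47, with -1.34 (-1.86 to -0.88).

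The branches that leave glycolysis differed from list to list. In the pentose phosphate pathway, with 9 genes compared, 2 were higher and 1 lower, and the median was 0.27. PGD, the enzyme that yields NADPH and ribulose 5-phosphate, had 3594 and 4310 reads with a log2 fold change of 0.64 (0.58 to 0.71), and PGLS, the lactonase before it, had 1948 and 2296 with 0.62 (0.53 to 0.71). PHGDH, the first enzyme of serine synthesis, had 15150 and 17949, with 0.63 (0.59 to 0.66), and was the 1 gene of 5 past the limit. All 3 were just past the limit and fell inside it under other scaling, with total counts (PGD 0.56, PGLS 0.54, PHGDH 0.55) and with the GC trend removed (PGD 0.56, PGLS 0.45, PHGDH 0.43).

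Glycogen and hexosamine genes had 0 of 13 higher and 3 lower. PYGL, the liver form of glycogen phosphorylase, had 518 reads in Ramos and 20 in Ramos640, for a log2 fold change of -4.26 (-5.04 to -3.67), the lowest of all the genes named. GYG1, the primer of glycogen synthesis, had 4184 and 1818, with -0.82 (-0.90 to -0.74), and UGP2, which makes UDP-glucose, had 4705 and 2377, with -0.60 (-0.68 to -0.53). With the GC trend removed, GYG1 stood at -0.50 and UGP2 at -0.33, inside the limit, which left PYGL as the one gene of the list past it. GPD2, the mitochondrial arm of the glycerol phosphate shuttle, had 1685 and 673, with -0.94 (-1.07 to -0.81), in a list of 3 genes of which 1 was higher and 1 lower. In the tricarboxylic acid cycle 2 of 17 genes were higher and 0 lower. IDH3A, of the NAD-dependent isocitrate dehydrogenase, had 2813 and 3890, with 0.85 (0.78 to 0.92), and OGDH, of the 2-oxoglutarate dehydrogenase complex, had 3242 and 3820, with 0.62 (0.55 to 0.69). OGDH was inside the limit with total counts, at 0.54, and with the GC trend removed, at 0.45.

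**Figure D5:**
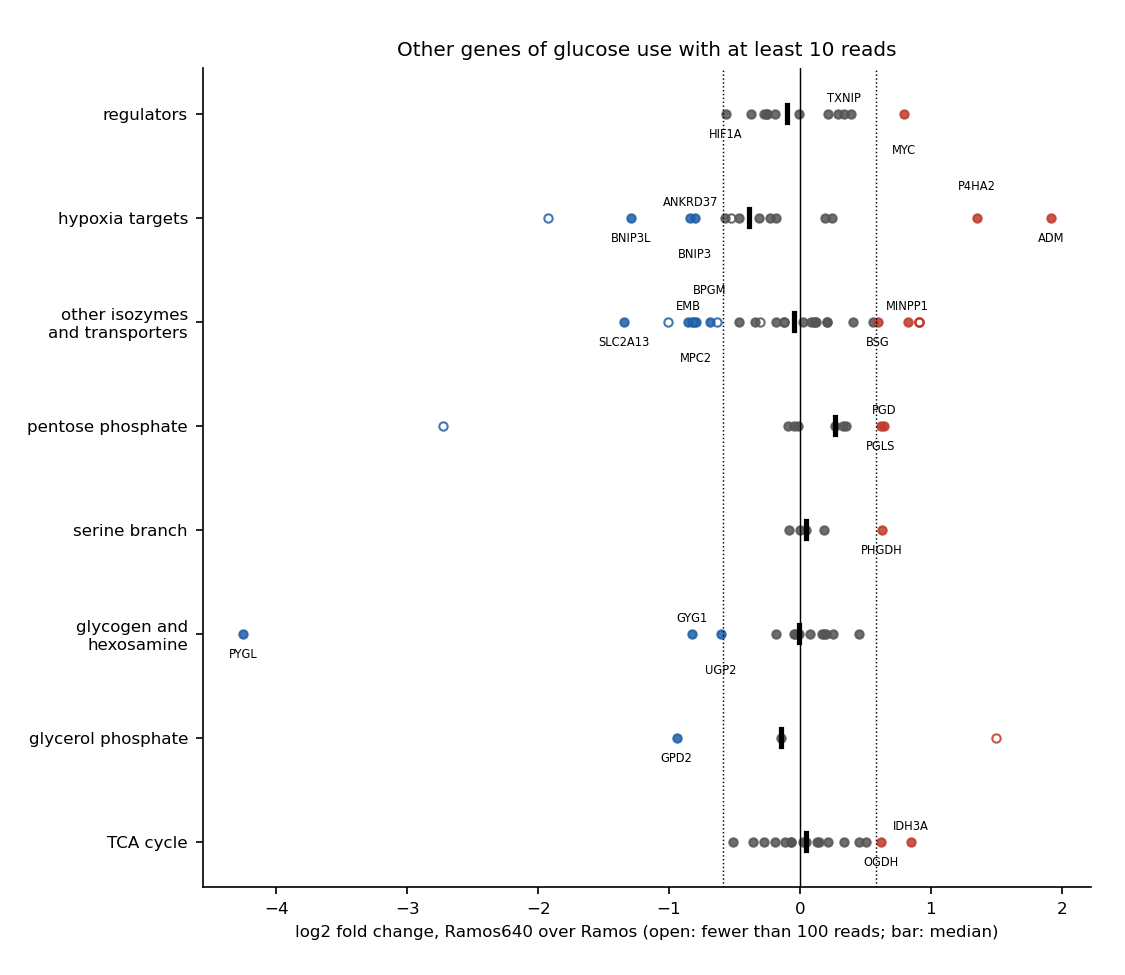
Log2 fold change (Ramos640 over Ramos, horizontal axis) of each compared gene in the lists around glycolysis, 1 row per list, open points for genes with fewer than 100 reads, a bar at each list's median, and dotted lines at the 1.5-fold limit. The hypoxia targets have their median at -0.39 and the pentose phosphate genes at 0.27, while PYGL, at -4.26, stands far from the other genes of its list.

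The libraries held the RNA of B cells. All 8 B-cell markers had reads in both libraries, with CD79B at 69495 and 82890, 1 of them past the limit upward (CD79B, 0.64) and 2 downward (MS4A1 and PAX5, at -0.80). MS4A1, which encodes CD20, the target of rituximab, had 9654 reads in Ramos and 1904 in Ramos640, for a log2 fold change of -1.96 (-2.03 to -1.89). The T-cell markers CD3D, CD2 and CD8A had 0 reads in both, the monocyte markers CD14 and LYZ at most 3, and the epithelial marker EPCAM at most 1. The most reads on any other monocyte marker were 13 in Ramos (S100A8) and 9 in Ramos640 (CSF1R), and on an epithelial marker 19 and 11 (KRT18), with KRT8 at 18 and 3. CD3E had 1 and 31 reads and TRAC 1555 and 583, and their source was not tested. Summed, the T-cell list had 41.0 RPM in Ramos and 19.9 in Ramos640, the monocyte list 0.526 and 0.615, and the epithelial list 0.999 and 0.486.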

How the data were processed

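RNA-seq was performed on 1 Ion Proton library of each cell line, with the RNA of 3 passages pooled beforehand. Adaptors were trimmed by the authors, who aligned the reads to GRCh37 with MapSplice and deposited raw read counts per gene. The counting program, its annotation, its use of strand and its treatment of reads matching several genes are not given in the sources used here. The table has 37122 rows and totals of 38030090 (Ramos) and 30871826 (Ramos640) reads, and 28 rows whose names had become spreadsheet dates hold 0.205% and 0.176% of the reads.

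From these counts, median-of-ratios size factors (1.14 and 0.876), log2 fold changes with a pseudocount of 1 and exact 95% intervals were computed in Python 3.11.15 (numpy 2.4.6, pandas 2.3.3, scipy 1.17.1) for genes with at least 10 reads, and the calculation was tested on simulated data. The 1.5-fold limit is that of the study. With 1 library per line, edgeR and DESeq2 cannot estimate dispersion, so no p-value is given. Transcript lengths, GC content and coordinates came from GENCODE 44 mapped to GRCh37 (26178 rows by current symbol, 2197 more through an earlier one). Alternatives were TMM factors (edgeR 4.0.16, R 4.3.3), total counts, removal of the GC trend, added pseudogene reads, pseudocounts of 0.1 and 10, minima of 1 and 100 reads, a 2-fold limit and shares per kilobase. All 34 genes were named, and of each further list the genes past the limit with at least 100 reads, plus HIF1A, MYC and TXNIP. The genes, lists and rules were chosen with earlier results of these data known. From the further lists, 1 gene is not reported here and enters none of their counts.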

Additional observations from a re-analysis of the deposited data

How the results depend on the processing

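TMM factors and pseudocounts of 0.1 and 10 kept the counts past the limit within 1.5 times of those reported, with a pseudocount of 10 giving 12 higher and 13 lower in the surrounding lists, where 14 and 17 are reported. A minimum of 1 read gave 6 of the 34 genes lower in place of 5, HK3 being added, and 20 higher and 24 lower in the surrounding lists. TMM factors moved the median of all compared genes by -0.0097 and total counts by -0.080. With total counts the number of genes with an interval above 0 was 8, where 14 is reported, the median of the 33 genes was -0.069, where 0.012 is reported, and 9 genes of the surrounding lists were higher, where 14 is reported. With the GC trend removed those values were 9, -0.039 and 9. Adding pseudogene reads left 1 gene higher in place of 2, and gave SLC2A3 a log2 fold change of -0.33 and a share difference of -2.68 points in place of 0.65. A minimum of 100 reads also left 1 gene higher, and 11 genes of the surrounding lists lower in place of 17. Of 56 named genes, 0 left their counting interval under TMM factors, 28 did with total counts and 37 with the GC trend removed, and SLC2A3 was the only one past the 1.5-fold limit whose sign changed under any alternative run. A 2-fold limit left 1 gene lower, PFKFB2, in place of 5. Per kilobase the PDK1 share differed by -2.55 points in place of -10.8. For the changes other than those made by fewer genes compared or a stricter limit, the cause was not tested.

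No paired analysis was possible because each line has 1 library, and for the same reason no library was left out. Depth limits SLC2A3, ENO2 and ENO3, the least read of the 33 genes, and HK3, which had 1 read.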

Other observations

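Pseudogene rows of GAPDH differed among themselves. GAPDHP40 had 2170 reads in Ramos and 4149 in Ramos640, for a log2 fold change of 1.32, whereas GAPDHP1 had 9289 and 7700, with 0.11, and GAPDHP65 had 4096 and 4671, with 0.57. GAPDH itself stood at 0.16. LDHAP4 had 7529 and 6320 reads, with 0.13, beside -0.03 for LDHA, and ENO1P1 had 1674 and 1575, with 0.29, beside -0.31 for ENO1. These rows share near-identical sequence with their parents, and whether the reads came from the pseudogenes or from the parents was not tested.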
